A study of Homo sapiens with 24 samples.

Results

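The genes described here encode the proteasome, the barrel-shaped protease that degrades ubiquitin-tagged proteins, together with its activators, its inhibitor PSMF1 and some of its assembly factors. They are 40 genes chosen by name: 7 alpha (PSMA) and 7 beta (PSMB) subunits of the 20S core, 6 ATPases (PSMC) and 4 other subunits of the base of the 19S cap, 8 subunits of the 19S lid, and 8 activators, inhibitor and assembly factors. Their reference transcripts hold 396 introns, and all of the 792 intron ends had reads in all 24 samples, out of 191173 intron ends with reads in all samples over the whole data set. On the strand and within the span of these genes the files listed 5888 of 1828222 junction and boundary values, of which 1869 were exon-intron boundaries and 4019 were spliced junctions.

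The RNA came from HCT116 cells, a human colorectal carcinoma line, in 4 groups of 6 samples each: cells expressing WT PHF5A or Y36C PHF5A, treated with DMSO or with E7107. PHF5A is a subunit of SF3b, the part of the U2 snRNP that holds the branch point of an intron. E7107 is a pladienolide derivative that targets SF3b, and the study proposes that it binds in the pocket around the branch point adenosine. Both PHF5A versions were overexpressed in parental HCT116 cells, so endogenous PHF5A was still present in all 4 groups, and treatment lasted 6 h. The study reports that the Y36C form made up most of the PHF5A mRNA in the Y36C line. The labels give no dose, and the study used more than one but describes this RNA-seq comparison at the lower of them. The files hold no base calls, so the genotype could not be checked in them. All intron ends of the epithelial genes EPCAM, CDH1, KRT8, KRT18 and KRT19 had reads in every sample, whereas PTPRC, CD3E, ALB, GFAP and PECAM1 had none with reads throughout. Of the intestinal genes, VIL1 and LGALS4 also had none, and CDX2 had 2 of 4. Other genes used as markers of non-epithelial cells did have such ends: CD68 had 10 of 10, COL1A1 80 of 90 and DES 1 of 8, and their part in the results was not tested.

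The measurement is percent spliced in (PSI): the reads of a junction or of an exon-intron boundary as a percent of all reads at the same splice site. PSI at a boundary measures intron retention (IR), and PSI of a junction that joins non-adjacent exons measures exon skipping (ES). PSI is a share of the reads at a site and carries no information on the amount of mRNA. The number of reads behind a value was not in the files, so the depth of each value is unknown. A sample had reads at 281367 to 340236 of the 637511 splice sites listed, and the 6 WT samples treated with E7107 had the fewest (281367 to 283782). Differences between groups were tested in limma over the whole table, as changes in log odds (natural logarithm), and called where p, after Benjamini-Hochberg adjustment, did not exceed 0.05. Nothing in the labels says that the 6 samples of a group came from separate cultures, so these p-values measure the spread between samples.

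The proteasome has a core of stacked alpha and beta rings, with the proteolytic sites in beta subunits. The 19S cap recognizes ubiquitin chains, removes them at its lid, and unfolds the substrate with a ring of ATPases. Because proliferating cells depend on this machine, it is the target of inhibitors such as bortezomib, and its subunits must be made in matched amounts.

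E7107 raised the retention of proteasome introns in WT cells and, much less, in Y36C cells. Averaged over the 792 boundaries, PSI was 1.22% ± 0.06 (SD, n = 6) in DMSO-treated WT cells and 7.07% ± 0.51 (SD, n = 6) after E7107, with samples from 6.38% to 7.71%. In Y36C cells it was 1.20% ± 0.06 under DMSO and 1.97% ± 0.07 after E7107 (SD, n = 6). The samples of the treated and DMSO groups did not overlap in either genotype. Over all 191173 boundaries the corresponding means were higher, at 3.82%, 15.7%, 3.69% and 5.71%. The medians over boundaries had another order. The median was lower for the proteasome genes only in E7107-treated WT cells (3.09% against 5.48%). It was higher in DMSO-treated WT cells (0.617% against 0.525%) and in Y36C cells under DMSO (0.547% against 0.201%) and E7107 (0.909% against 0.834%). All of these higher medians were low, and the part that boundaries without any retention reads play in their order was not tested. ADRM1 and PSMD7 contributed much of the WT rise: without these 2 genes the mean over the remaining 762 boundaries was 5.04% ± 0.48 (SD, n = 6) in E7107-treated WT cells.

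At the level of genes, taken as the mean PSI over the boundaries of each, 35 of 40 proteasome genes rose in WT cells (87.5%, against 72.7% of 10381 genes tested). PSME1 and PSME2 fell, and PSMA3, PSMD13 and PSMG1 passed the threshold in neither direction. In Y36C cells 27 of 40 rose (67.5%, against 48.8% of all genes) and none fell. The calls were frequent but the changes were small: the median change of the 40 genes was 0.76 in log odds in WT cells and 0.19 in Y36C cells, against 1.10 and 0.26 over all genes. The median gene went from 1.04% to 2.55% in WT cells and from 0.92% to 1.36% in Y36C cells. By the interaction term of limma, Y36C cells had a smaller response to E7107 for 30 genes (75.0%, against 61.2%) and a larger one for 5 (12.5%, against 13.4%).

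**Figure D1:**
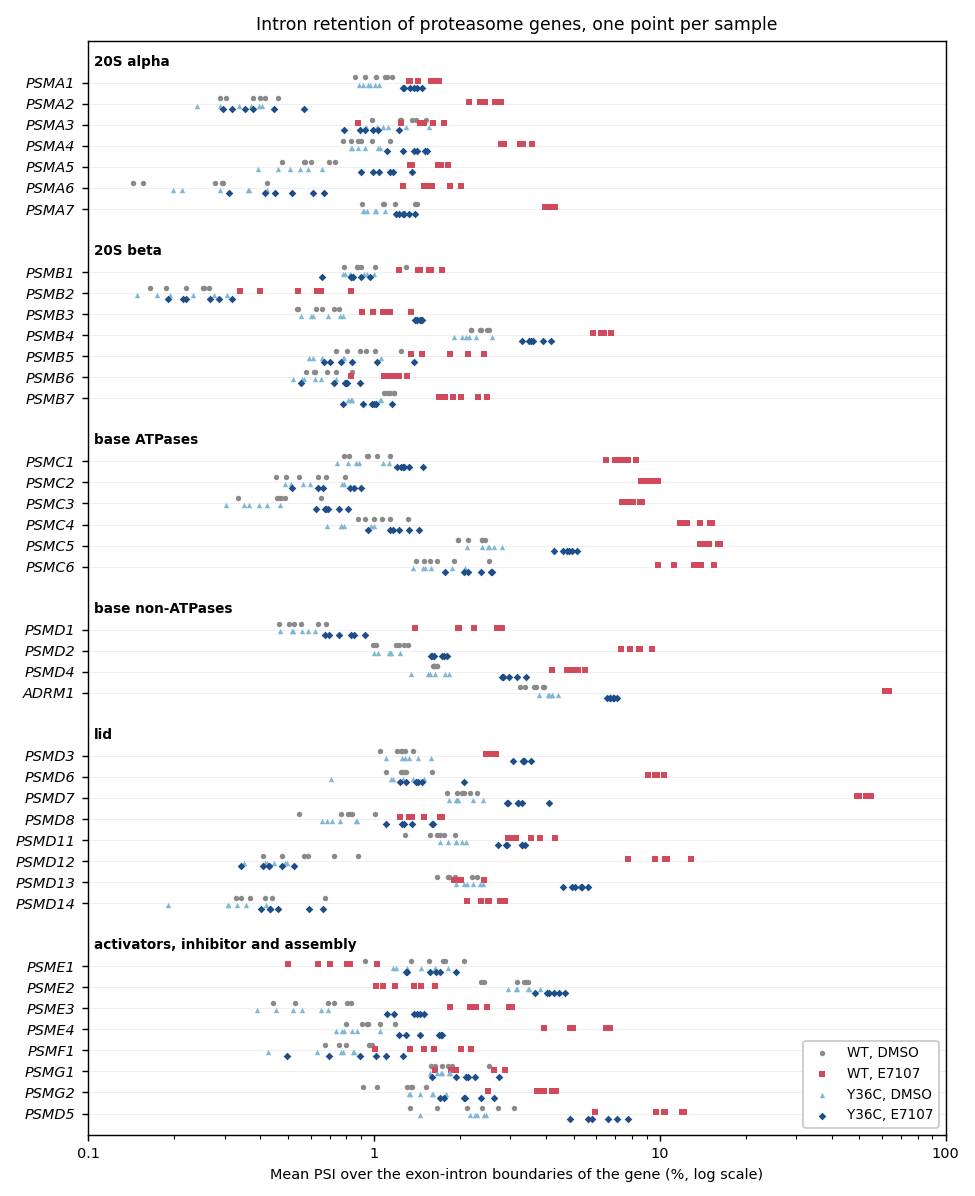
Mean PSI over the exon-intron boundaries of each of the 40 genes (x axis, percent, log scale), with a point for each of the 24 samples and genes grouped by role. ADRM1 and PSMD7 in E7107-treated WT cells (red squares) stand above 49%, the 6 base ATPases lie between 6.47% and 16.3%, and PSME1 and PSME2 lie to the left of their DMSO values.

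The genes of the 20S core changed little. By the median change in WT cells the beta class was the lowest. The activators, inhibitor and assembly factors came next (1.27 percentage points), ahead of the alpha class. Of the 7 alpha genes 6 rose in WT cells, by a median of 1.37 percentage points over the 7, and of the 7 beta genes all 7 rose, by a median of 0.54 points. PSMA7, an alpha ring subunit, had the largest alpha change: its samples were 0.908%, 1.13% and 1.41% (lowest, median, highest) in DMSO-treated WT cells and 3.96%, 4.05% and 4.30% after E7107 (0.88 ± 0.05 SE in log odds, adjusted p = 2.64e-09). In Y36C cells PSMA7 went from a median of 0.977% to 1.27% (adjusted p = 0.00202). PSMA4, another alpha subunit, went from a median of 0.890% to 3.26% in WT cells (adjusted p = 8.98e-09). The treated and untreated WT samples of both genes were well apart. PSMA3 had samples of 0.986% to 1.52% under DMSO and 0.882% to 1.76% after E7107, so the groups overlapped (adjusted p = 0.574).

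Among the beta genes PSMB4, a structural subunit of the beta ring, had the largest change, from 2.19%, 2.35% and 2.53% (lowest, median, highest) to 5.85%, 6.38% and 6.76% in WT cells (0.83 ± 0.04 SE in log odds, adjusted p = 9.22e-10). It also rose in Y36C cells, from a median of 2.13% to 3.57% (adjusted p = 1.81e-05). PSMB5, which carries the chymotrypsin-like site that bortezomib blocks, had a median of 0.916% under DMSO and 1.85% after E7107 in WT cells (adjusted p = 0.000325). In Y36C cells the 2 values were 0.718% and 0.803%, with overlapping samples (adjusted p = 0.366). PSMB2 had the smallest beta change, 0.34 percentage points, from 0.236% to 0.586% in the medians (adjusted p = 0.00155). Outside PSMB4 no beta gene changed by over 1 point in WT cells, although all 7 passed the threshold.

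The 6 base ATPases, which form the unfolding ring, rose together in WT cells, each by 6.44 to 13.03 percentage points. PSMC5 went from 1.96%, 2.26% and 2.45% (lowest, median, highest) to 13.8%, 15.4% and 16.3% in WT cells (1.76 ± 0.05 SE in log odds, adjusted p = 5.13e-12). It had the largest change of the ATPases in Y36C cells too, from a median of 2.52% to 4.77% (adjusted p = 1.06e-06). PSMC4 went from a median of 1.03% to 13.1% in WT cells (adjusted p = 8.34e-12) and from 0.777% to 1.20% in Y36C cells (adjusted p = 0.00478). The smallest change was that of PSMC1, from a median of 0.949% to 7.44% (adjusted p = 1.99e-11). No treated WT sample of these 3 ATPases came near an untreated one. Over the 6 genes the median change was 9.87 points in WT cells and 0.38 points in Y36C cells, in which 5 of the 6 passed the threshold, PSMC2 being the exception (adjusted p = 0.301). All 6 had a smaller effect in Y36C cells by the interaction term.

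ADRM1 and PSMD7 stood apart from all other members. ADRM1 is a ubiquitin receptor of the base that also docks the deubiquitinase UCHL5. Its mean boundary PSI was 3.23%, 3.66% and 3.93% (lowest, median, highest) in DMSO-treated WT cells and 61.6%, 63.1% and 63.5% after E7107, a change of 3.56 ± 0.04 (SE) in log odds (adjusted p = 1.23e-14). In Y36C cells it was 3.79%, 4.15% and 4.399% under DMSO and 6.56%, 6.78% and 7.08% after E7107 (adjusted p = 2.93e-07). Both rises exceeded the spread between samples, and the effect in Y36C cells was smaller by 3.11 in log odds (adjusted p = 2.4e-23). PSMD7 is the lid subunit that pairs with the deubiquitinase PSMD14. It went from 1.80%, 2.04% and 2.29% to 49.1%, 53.2% and 55.1% in WT cells (3.58 ± 0.05 SE in log odds, adjusted p = 2.85e-14). Its Y36C samples were 1.84% to 2.41% under DMSO and 2.91% to 4.11% after E7107 (adjusted p = 0.000169). PSMD14 itself had a mean of 0.427% under DMSO and 2.52% after E7107 in WT cells (adjusted p = 5.72e-09).

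The other base subunits, all scaffold or receptor proteins, rose as well. PSMD2, a scaffold for ubiquitin receptors, went from a median of 1.21% to 8.19% in WT cells (adjusted p = 1.86e-11) and from 1.13% to 1.67% in Y36C cells (adjusted p = 5.04e-05). PSMD1, the other large scaffold, had the smallest change of the class, from a median of 0.539% to 2.11% (adjusted p = 1.94e-06). In both genes the highest DMSO-treated WT sample lay below the lowest treated one.

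In the lid, 7 of 8 genes rose in WT cells and 6 of 8 in Y36C cells. PSMD12, a scaffold subunit, was the second largest of the class in WT cells, at 0.409%, 0.578% and 0.879% (lowest, median, highest) under DMSO and 7.74%, 10.4% and 12.8% after E7107 (adjusted p = 9.61e-11). In Y36C cells PSMD12 had medians of 0.434% and 0.429% and overlapping samples (adjusted p = 0.994). PSMD13, another scaffold subunit of the lid, had the opposite pattern. Its WT samples were 1.66%, 1.87% and 2.30% under DMSO and 1.91%, 1.96% and 2.43% after E7107, so the groups overlapped (adjusted p = 0.635). Its Y36C samples were 1.94%, 2.17% and 2.40% under DMSO and 4.60%, 5.17% and 5.59% after E7107, with no overlap (0.69 ± 0.04 SE in log odds, adjusted p = 9.21e-08). The responses of PSMD13 in the 2 genotypes differed by 0.66 in log odds, Y36C being higher (adjusted p = 1.53e-09). PSMB3, PSMD3, PSME1 and PSME2 were the other 4 genes with a larger effect in Y36C cells.

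Among activators and assembly factors, PSMD5, a chaperone of base assembly, had the largest change, from 1.34%, 2.25% and 3.09% (lowest, median, highest) to 5.94%, 10.4% and 12.1% in WT cells (adjusted p = 9.56e-07). PSMD5 was also the member with the largest gene-level change in Y36C cells, from a median of 2.28% to 6.201% (adjusted p = 3.49e-06). PSME4, the large activator PA200, went from a median of 0.949% to 4.95% in WT cells (adjusted p = 1.61e-08). PSME1 and PSME2 encode the alpha and beta chains of the activator PA28, which interferon induces. PSME2 fell in WT cells, from 2.38%, 3.26% and 3.45% to 1.02%, 1.28% and 1.64% (-0.58 ± 0.07 SE in log odds, adjusted p = 8.76e-06). In Y36C cells PSME2 rose from a median of 3.32% to 4.19% (adjusted p = 0.00473). PSME1 had WT means of 1.57% under DMSO and 0.748% after E7107 (adjusted p = 0.000705), and Y36C means of 1.43% and 1.57% (adjusted p = 0.446).

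A second list, of 27 tested genes around the proteasome (immunoproteasome subunits, further assembly factors, deubiquitinases, shuttle factors, transcriptional regulators and ubiquitin genes), had 21 genes raised and 2 lowered in WT cells and 12 raised and 0 lowered in Y36C cells. The raised shares, 77.8% and 44.4%, were near those over all genes (72.7% and 48.8%). The median change in WT cells was 0.71 in log odds, against 0.76 for the 40 genes and 1.10 for all genes. UBQLN4, a ubiquitin shuttle factor, was among those that fell (3.18% to 2.58%, adjusted p = 0.0339).

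Between the DMSO-treated groups hardly any difference in retention passed the threshold in the proteasome genes. None of the 40 genes passed the threshold in limma (1.19% of all genes did), 5 had an unadjusted p under 0.05, and the smallest adjusted p was 0.136. Of 457 member boundaries tested, 1 was higher in Y36C cells (0.219%, against 0.206% of all boundaries) and 0 were lower (against 0.162%), with 59 at an unadjusted p under 0.05. The shares of all genes and of all boundaries at that unadjusted level were not counted, so the 5 genes and 59 boundaries cannot be set against them. The 1 boundary was the 3′ end of intron 13, the last, of PSMD11, a lid scaffold gene, at 12.3% ± 1.6 in WT and 17.5% ± 0.8 in Y36C cells (SD, n = 6, adjusted p = 0.0455). The 5′ end of the same intron was at 11.03% ± 1.8 and 15.8% ± 1.3 (SD, n = 6) but missed the threshold (adjusted p = 0.0853). The call at the 3′ end was lost with an offset of 0.1 points, with no filter on low values and with a filter at a mean PSI of 5%. The next smallest p-values, for an end each of PSME3 intron 5, PSMD14 intron 4 and PSMD12 intron 6, had adjusted p of 0.0911 to 0.12 and were lower in Y36C cells, with means of 1.08% or less.

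At single boundaries, E7107 raised 472 of 653 tested in WT cells (72.3%, against 74.0% of all boundaries tested) and lowered 33 (5.05%, against 5.66%). In Y36C cells it raised 149 of 482 (30.9%, against 30.8%) and lowered 3 (0.622%, against 1.11%). Boundaries were tested where some group had no sample at a PSI of 0, and 261 of the 653 in WT cells and 90 of the 482 in Y36C cells entered only through the E7107-treated group. With no such filter, 483 of all 792 boundaries rose in WT cells (61.0%, against 41.2% of all boundaries) and 117 in Y36C cells (14.8%, against 7.66%). The effect was smaller in Y36C cells at 391 of 682 boundaries (57.3%, against 57.1%) and larger at 61 (8.94%, against 9.05%). Per boundary the proteasome genes were thus called about as often as other genes under the filter.

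Retention per intron, the mean PSI of its 2 boundaries, rose by a median of 2.49 percentage points in WT cells and 0.25 points in Y36C cells over the 396 introns. In WT cells 131 introns gained over 5 points, 53 over 10 and 15 over 40. In Y36C cells 10 gained over 5 points and 1 over 10. The 15 largest WT changes were all 9 introns of ADRM1 and all 6 introns of PSMD7. Both boundaries were raised at 196 of 293 introns tested at both in WT cells (66.9%, against 72.5% of all introns), among them all 20 introns of PSMD2. Both were lowered at 10 introns (3.41%, against 3.43%), of which PSME2 had 3 and PSMA3, PSMD3 and PSME1 had 2 each.

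**Figure D2:**
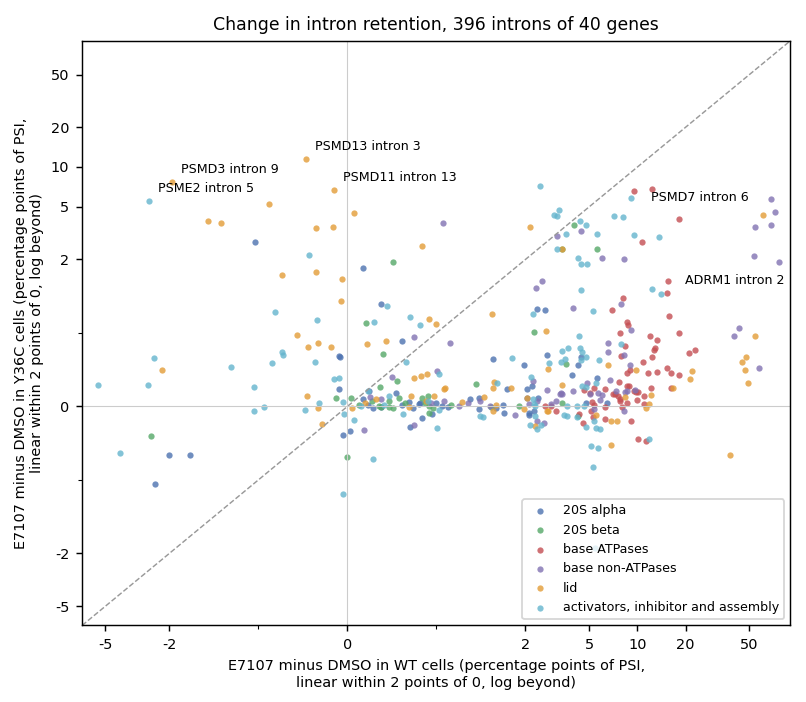
Change in retention with E7107 in WT cells (x axis) and in Y36C cells (y axis) for the 396 introns, in percentage points of PSI, with the dashed line marking equal change. Most points lie below the line at under 2 points in Y36C cells, ADRM1 and PSMD7 introns lie at the right, and introns of PSMD13, PSMD3, PSME2 and PSMD11 lie above the line with no gain in WT cells.

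The sequences at the 3′ ends of introns carry the polypyrimidine tract and usually the branch point, the site that SF3b holds. The 3 introns with the largest rise in WT cells, shown first, are ADRM1 introns 2, 5 and 4. Those with the smallest change that were tested at both boundaries, shown next, are PSMB1 intron 1, PSMB6 intron 3 and PSME2 intron 1. PSMD13 intron 3 and PSMD3 intron 9, shown last, had the largest excess of the Y36C over the WT change. Each line gives the last 50 bases of the intron and the first 3 bases of the exon, 5′ to 3′ on the transcript strand of GRCh37, with the AG at the end of the intron in capitals.
ADRM1 intron 2 (chr20:60879467-60879519, plus strand): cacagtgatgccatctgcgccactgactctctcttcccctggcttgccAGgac
ADRM1 intron 5 (chr20:60882377-60882429, plus strand): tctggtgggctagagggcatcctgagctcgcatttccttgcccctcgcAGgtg
ADRM1 intron 4 (chr20:60881654-60881706, plus strand): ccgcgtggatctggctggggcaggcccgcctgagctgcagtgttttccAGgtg
PSMB1 intron 1 (chr6:170858199-170858251, minus strand): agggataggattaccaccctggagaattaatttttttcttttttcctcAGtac
PSMB6 intron 3 (chr17:4700927-4700979, plus strand): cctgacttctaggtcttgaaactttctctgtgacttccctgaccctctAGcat
PSME2 intron 1 (chr14:24615447-24615499, minus strand): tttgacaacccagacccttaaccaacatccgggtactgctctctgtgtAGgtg
PSMD13 intron 3 (chr11:244111-244163, plus strand): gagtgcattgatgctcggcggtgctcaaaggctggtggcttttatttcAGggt
PSMD3 intron 9 (chr17:38152386-38152438, plus strand): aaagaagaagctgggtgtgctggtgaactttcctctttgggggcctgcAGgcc

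The share of pyrimidines in the 18 bases before the AG was 83.3%, 83.3% and 61.1% in ADRM1 introns 2, 5 and 4, and 100%, 77.8% and 61.1% in PSMB1 intron 1, PSMB6 intron 3 and PSME2 intron 1. PSMD13 intron 3 and PSMD3 intron 9 had 66.7% each. The letters CTNA, a loose form of the branch point motif, were searched on the transcript strand in the last 50 bases, ahead of the AG, and were found in 6 of these 8 introns and not in PSMB1 intron 1 and PSMD3 intron 9. They were in 63.4% of the 396 member introns and in 64.3% of 186283 reference introns of at least 50 bases. The median share of pyrimidines was 77.8% in both sets. Of the 396 introns 394 began with GT and ended with AG, and 2 began with GC.

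ADRM1 intron 2, 679 bases long and 60.5% GC, had the largest rise: its samples were 1.21%, 1.94% and 2.36% (lowest, median, highest) in DMSO-treated WT cells and 77.0%, 78.4% and 80.0% after E7107. Both its boundaries rose (4.76 in log odds at the 5′ and 4.93 at the 3′ boundary, adjusted p = 1.05e-10 and 3.69e-11). In Y36C cells it went from a median of 1.25% to 3.39%. ADRM1 intron 5 went from 6.10% to 78.4% and intron 4 from 5.51% to 73.1% in the WT medians, and in Y36C cells they went from 7.49% to 11.9% and from 6.52% to 11.8%. Introns 6, 7 and 9 of ADRM1 reached WT medians of 71.1%, 62.2% and 56.0%. Introns 7 to 9 overlap the antisense gene LAMA5 and introns 3 and 4 an antisense RNA gene, and the libraries are not stated to keep strand, so boundary reads of the 2 strands cannot be told apart there. In PSMD7 the largest rises were at intron 6, from a median of 4.80% to 65.2%, and at intron 5, from 0.951% to 55.9%, the former over the antisense gene ENSG00000259972. As the mean of its 2 boundaries, each intron of ADRM1 and PSMD7 was at 41.4% or more in E7107-treated WT cells, although the boundaries of intron 1 were far apart in both genes.

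The introns with the smallest WT change had overlapping groups at low levels. PSMB1 intron 1, 4016 bases long, had samples of 2.11% to 3.66% under DMSO and 2.22% to 3.14% after E7107 in WT cells. Its boundaries moved in opposite directions, by 0.38 in log odds at the 5′ boundary (adjusted p = 0.00964) and -0.43 at the 3′ boundary (adjusted p = 0.00357). PSMB6 intron 3, PSME2 intron 1 and PSMA1 intron 6 had WT medians of 0.891%, 2.09% and 0.687% under DMSO and 0.854%, 2.18% and 0.658% after E7107, and neither boundary passed the threshold in WT cells.

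In some genes the rise was at 1 boundary of 1 intron. In PSMD3, a lid scaffold gene, the 5′ boundary of intron 1 went from 0.839% to 44.4% in WT cells (adjusted p = 2.11e-10), whereas the 3′ boundary of this 3103-base intron was at 0.0781% and 0.264% and was not tested for low values. Without that boundary the mean change of PSMD3 in WT cells was -0.66 percentage points in place of 1.35. PSMD6 intron 2 had 0.227% and 42.3% at its 5′ boundary and 0.402% and 0.807% at its 3′ boundary, under DMSO and E7107, and lies over the antisense gene ENSG00000272181. Intron 1 of the same gene rose at both boundaries, to 36.3% and 47.4%. PSME3 intron 1 had 25.4% and 2.00% at the 2 boundaries after E7107 in WT cells. ADRM1 intron 1 had the reverse, with 5.53% at the 5′ and 77.2% at the 3′ boundary, and PSMD7 intron 1 had 62.8% and 39.6%. In PSMA5 and PSMA3 1 boundary of intron 1 likewise had the largest change, and without it the mean change of the gene was 0.21 in place of 0.99 points and -0.47 in place of 0.11 points.

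**Figure D3:**
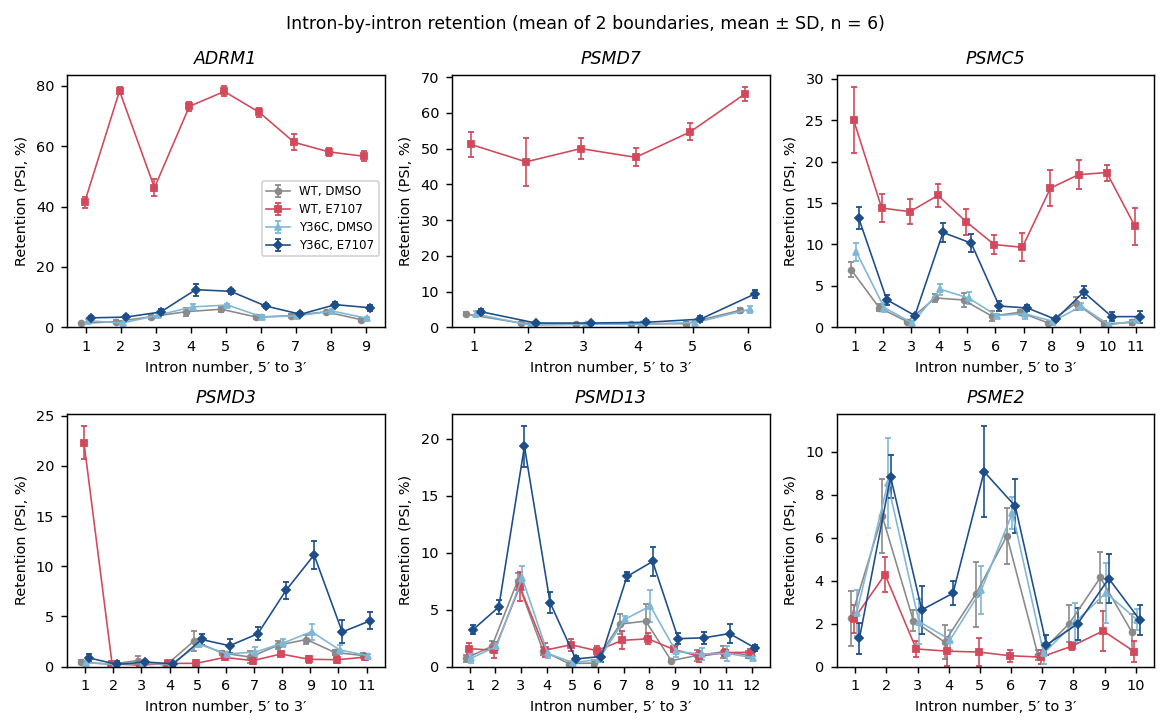
Retention of each intron (mean of its 2 boundaries, PSI in percent, mean ± SD, n = 6) along 6 genes, with introns numbered 5′ to 3′ and the 4 groups as lines. In ADRM1, PSMD7 and PSMC5 the E7107-treated WT line is the highest at every intron, in PSMD3 it is high at intron 1 alone, and in PSMD13, PSMD3 and PSME2 the E7107-treated Y36C line leads at several introns.

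Some introns gained retention after E7107 in Y36C cells and not in WT cells. PSMD13 intron 3, of only 85 bases, had the largest Y36C change: its samples were 6.48%, 7.80% and 9.02% (lowest, median, highest) under DMSO and 17.7%, 18.9% and 22.6% after E7107. In WT cells they were 6.10%, 7.62% and 8.20% under DMSO and 5.90%, 6.89% and 9.37% after E7107, overlapping throughout. The interaction term was 1.38 in log odds at the 5′ boundary (adjusted p = 9.41e-06) and 0.80 at the 3′ boundary (adjusted p = 0.000147). The introns of this paragraph were named for their excess of the Y36C over the WT change, which is what this term measures. PSMD3 intron 9 moved in opposite directions, from a median of 3.47% to 10.999% in Y36C cells and from 2.67% to 0.792% in WT cells, with adjusted p of 0.000634 or less at both boundaries in either genotype. PSME2 intron 5, of 87 bases, did the same, from 3.58% to 9.10% in Y36C cells and from 3.35% to 0.602% in WT cells (adjusted p from 0.00182 to 0.0179). PSMD11 intron 13 had medians of 17.1% and 23.4% in Y36C cells and 11.8% and 12.2% in WT cells.

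Of 312 introns tested at both boundaries, the effect was larger in Y36C cells at both for 20 (6.41%, against 6.02% of all introns), of which PSMD13 and PSMD3 had 6 each, PSME2 had 3 and PSME1 had 2. It was smaller at both boundaries for 160 (51.3%, against 53.7%). Other introns rose in both genotypes. PSMC5 intron 4 had medians of 3.60% and 15.6% in WT cells and 4.39% and 11.5% in Y36C cells, and intron 5 had 3.21% and 12.3% against 3.63% and 10.4%. At intron 4 the effect was smaller in Y36C cells at the 5′ boundary, with a difference of -0.95 in log odds (adjusted p = 2.39e-05), and the difference missed the threshold at the 3′ boundary (-0.21, adjusted p = 0.275). PSMC5 intron 4 lies over the antisense gene FTSJ3. PSMD5 intron 5 had medians of 4.77% and 11.9% in Y36C cells, with a spread of 8.81% to 19.96% after E7107, and missed the threshold (adjusted p = 0.0869 and 0.124). It lies over the antisense gene CUTALP.

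Short introns made up most of those with the largest gains in Y36C cells. Of the 10 introns with a gain of over 5 points there, 5 were under 150 bases and 3 were of 150 to under 500 bases, although these 2 ranges held 58 and 80 of the 396 introns. Over 5 ranges of length, the median change in Y36C cells was 0.45 points under 150 bases and highest, at 0.59 points, from 150 to under 500 bases. It was 0.23, 0.17 and 0.07 points in the ranges that start at 500, 1000 and 3000 bases. In WT cells the medians were 0.97, 4.43, 3.09, 2.16 and 1.53 points, lowest in the shortest range, whereas 24 of 58, 34 of 80, 26 of 72, 33 of 115 and 14 of 71 introns of the 5 ranges gained over 5 points. Leaving out ADRM1 and PSMD7 left the same order, with 0.90, 4.37, 2.73, 2.11 and 1.41 points in WT cells. Across the 396 introns, which share genes and libraries, Spearman's rho of the Y36C change was -0.27 with length, 0.20 with GC content and 0.41 with retention in DMSO-treated WT cells. For the WT change the 3 values were -0.13, 0.00 and 0.02. Retention in DMSO-treated WT cells is subtracted in the WT change and not in the Y36C change, so 0.02 and 0.41 are not directly comparable. Pearson's r was -0.1, 0.26 and 0.23 for the WT change, and -0.11, 0.16 and 0.49 for the Y36C change. Between the WT and the Y36C change rho was 0.15.

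Exon skipping showed the reverse balance between the genotypes. The proteasome genes held 456 junctions that skip reference exons, listed at both ends (912 values). In WT cells 83 of 156 tested values rose (53.2%, against 34.8% of all such values), and in Y36C cells 139 of 192 (72.4%, against 53.5%). Of these tested values 86 in WT cells and 118 in Y36C cells entered only through the E7107-treated group. With no filter on low values, 97 of 912 rose in WT cells (10.6%, against 6.61%) and 131 in Y36C cells (14.4%, against 7.78%). The effect was larger in Y36C cells at 99 of 246 (40.2%, against 35.7%) and smaller at 55 (22.4%, against 16.4%). Both ends were raised for 41 of 78 junctions tested at both in WT cells, in 21 genes (34.0% of all such junctions), and for 69 of 96 in Y36C cells, in 32 genes (50.6% of all). The 2 sets had 15 junctions in common, which made up 36.6% of the WT and 21.7% of the Y36C junctions, against 29.7% and 15.0% over all junctions. Single exons were skipped in 23 of the 41 and in 54 of the 69, and the length skipped was a multiple of 3 in 15 and 38.

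ADRM1 exon 9 (103 bases, flanked by the junction chr20:60883235-60883710) was the only junction that led in both genotypes. At its 3′ splice site, skipping was 3.94%, 4.73% and 5.45% (lowest, median, highest) in DMSO-treated WT cells and 22.2%, 25.6% and 29.2% after E7107 (1.77 ± 0.09 SE in log odds, adjusted p = 7.08e-09). In Y36C cells it was 3.25%, 4.00% and 4.65% under DMSO and 33.0%, 34.8% and 37.7% after E7107 (adjusted p = 1.88e-08), and the effect was larger than in WT cells by 0.61 in log odds (adjusted p = 0.000145). The other outcomes at this site differed more. After E7107 the mean shares of skipping, inclusion and retention were 25.3%, 27.5% and 47.1% in WT cells and 35.1%, 60.3% and 4.56% in Y36C cells. Under DMSO inclusion was 92.9% in WT and 93.7% in Y36C cells.

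The other leading junctions differed between the genotypes. In WT cells they were in ATPase genes and in ADRM1. Skipping of PSMC2 exons 2 to 4 had samples of 0.00% to 0.294% under DMSO and 9.46% to 12.9% after E7107 in WT cells (adjusted p = 1.11e-09), and 0.251% to 2.55% after E7107 in Y36C cells (adjusted p = 0.265). Skipping of PSMC2 exons 8 and 9 and of PSMC6 exons 9 to 12 was listed at 0 in all DMSO-treated samples and reached means of 6.11% and 5.80% in E7107-treated WT cells, against 0 and 0.0786% in Y36C cells. PSMC5 exon 7 went from a median of 0.437% to 8.87% in WT cells and from 0.637% to 2.29% in Y36C cells. Skipping of ADRM1 exons 2 and 3 rose at its 3′ splice site from a mean of 0.622% to 2.21% in WT cells (adjusted p = 0.00123) and from 0.495% to 2.72% in Y36C cells (adjusted p = 0.000382). At its 5′ splice site it rose from 1.25% to 12.4% in WT cells (adjusted p = 5.74e-06) and from 1.06% to 5.43% in Y36C cells (adjusted p = 0.00015), a smaller effect in Y36C cells (-0.69 in log odds, adjusted p = 0.027). At each of the 4 junctions of the ATPase genes the effect was smaller in Y36C cells (adjusted p of 4.58e-07 or less at the 3′ splice site). These junctions were chosen for their rise in WT cells, which is a part of this difference, so its sign was favoured by the choice. Those of PSMC2 exons 8 and 9 and of PSMC6 exons 9 to 12 passed the filter on low values only through E7107-treated WT cells. In the test within WT cells, those of PSMC2 exons 2 to 4 and PSMC5 exon 7 also passed it only through the E7107-treated group.

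In Y36C cells, the leading junctions besides ADRM1 exon 9 skipped single exons. PSMG1 encodes a chaperone that builds the alpha ring. Skipping of its exon 4 (63 bases) had samples of 4.57%, 6.35% and 7.58% under DMSO and 26.4%, 33.9% and 34.3% after E7107 in Y36C cells (1.86 ± 0.10 SE in log odds, adjusted p = 8.51e-07). In WT cells the medians were 6.11% and 6.05%, and the groups overlapped (adjusted p = 0.83). PSMC5 exon 5 (57 bases) was skipped at 7.92%, 8.54% and 9.45% under DMSO and 21.7%, 26.7% and 28.4% after E7107 in Y36C cells (adjusted p = 4.5e-07), and at medians of 4.60% and 3.49% in WT cells (adjusted p = 0.138). PSMD5 exon 4, PSMA4 exon 3 and PSMD14 exon 3 rose to means of 19.96%, 9.59% and 9.05% in Y36C cells, against 1.04%, 0.671% and 1.15% in WT cells. For all 5 of these exons the effect was larger in Y36C cells (adjusted p from 3.99e-10 to 0.00205). They were chosen for their rise in Y36C cells, which is a part of this difference. PSMD5 exon 4 and PSMD14 exon 3 passed the filter on low values only through Y36C cells. In the test within Y36C cells PSMA4 exon 3 passed it only through the E7107-treated group. In WT cells 1 sample had PSMD5 exon 4 skipped at 6.25% after E7107 and the median was 0.00%.

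**Figure D4:**
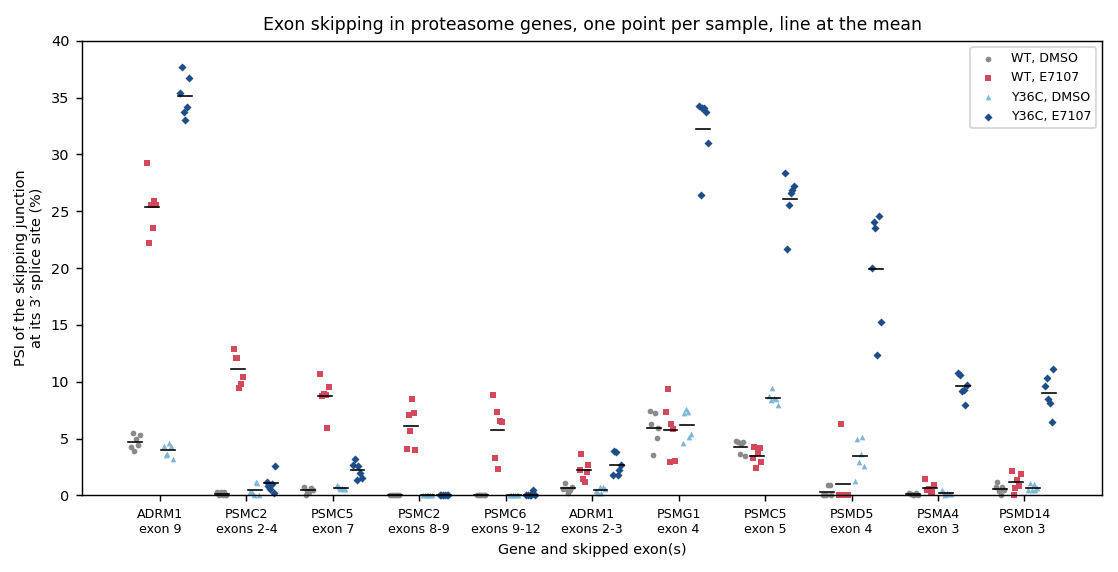
PSI of 11 exon-skipping junctions at their 3′ splice site (y axis, percent), with a point for each of the 24 samples and a line at the group mean. The first 6 junctions were chosen for their rise in WT cells (red squares) and the last 5, with ADRM1 exon 9, for their rise in Y36C cells (dark diamonds), of which PSMG1 exon 4 lies between 26.4% and 34.3% in E7107-treated Y36C cells and at 9.39% or less elsewhere.

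The 3′ splice sites of the 2 exons with the largest excess of skipping over WT cells are shown in the same form, a choice made after their values were seen.
PSMG1 intron 3, before exon 4 (chr21:40551910-40551962, minus strand): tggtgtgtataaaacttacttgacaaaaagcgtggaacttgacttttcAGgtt
PSMC5 intron 4, before exon 5 (chr17:61907443-61907495, plus strand): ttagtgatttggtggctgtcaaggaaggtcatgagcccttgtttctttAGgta
The 18 bases before the AG held 61.1% and 72.2% pyrimidines, and CTNA was found in the first and not in the second. At the downstream site, where skipping and inclusion of PSMG1 exon 4 compete, retention was 1.61% and 1.65% in WT cells and 1.64% and 1.53% in Y36C cells (DMSO, E7107). At the site after PSMC5 exon 5, retention was 14.4% and inclusion 79.2% in E7107-treated WT cells, against 10.1% and 63.7% in E7107-treated Y36C cells.

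Under DMSO, 3 of 94 tested exon-skipping values were higher in Y36C than in WT cells (3.19%, against 0.514% of all) and 0 were lower (against 0.183%). The 3 were both ends of the PSMC5 exon 5 junction and 1 end of the PSMD5 exon 4 junction. PSMC5 exon 5 was skipped in 3.45% to 4.75% in DMSO-treated WT samples and 7.92% to 9.45% in DMSO-treated Y36C samples, without overlap (0.65 in log odds, adjusted p = 0.00156). PSMD5 exon 4 had means of 0.306% and 3.43% (adjusted p = 0.0366 at the 3′ and 0.0629 at the 5′ end). Its junction passed the filter on low values only through DMSO-treated Y36C cells, the group in which it was higher, so the direction of this call was favoured by the filter. These 2 exons were among those whose skipping E7107 raised in Y36C cells.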

How the data were processed

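Poly(A) RNA of 24 samples was sequenced on an Illumina HiSeq. Per the labels and the study's methods, STAR (version not given in the sources used here) was run by the authors against hg19, and they turned junction counts into percent spliced in. The deposited values are these percentages, from 0 to 100, without counts or depth, so no counting interval can be given. At each splice site they add up to 100, or to 0 without reads, and the latter were treated as missing. No 2 samples had identical values. Groups came from the sample titles, 6 samples each.

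Introns were those of 1 reference transcript per gene in GENCODE v44 lifted to GRCh37, numbered along the transcript; 52 of the 396 overlap an annotated antisense gene and 28 another gene on the same strand. limma 3.58.1 (R 4.3.3) modelled ln((PSI + 1)/(100 - PSI + 1)), the log odds with an offset of 1 point, between the 2 groups of a comparison, or over all 24 samples for the interaction of genotype and treatment. Tested were values whose site had reads in every sample fitted and for which some group had no sample at 0. p-values were adjusted over the whole table. Gene levels were means over at least 2 boundaries with reads in all samples, without the filter on low values. The fits were tested on simulated data. Sequences were read with pysam 0.24.0 from GRCh37.

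The genes and lists were chosen with earlier results of these data known. Named were, per role class, the 2 genes with the largest and the 1 with the smallest WT change; the 8 introns with the largest and 4 with the smallest WT change, the 6 with the largest Y36C change and the 4 with the largest excess in Y36C; the 6 skipping junctions per genotype with the largest rise among those raised at both ends; and the 5 boundaries with the smallest p under DMSO. Other genes named with values were chosen after their values were seen, and some genes of the second list are not reported here. Alternatives were another offset, PSI as the response, other filters, all boundaries within the gene spans, medians, and a replicate block.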

Additional observations from a re-analysis of the deposited data

Results flagged for a closer look

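The effect of E7107 differed between the genotypes, by the interaction term of limma (Y36C minus WT, in log odds), for 17 of the 18 named genes. At the level of genes it was -3.23 for PSMD7, -3.11 for ADRM1, -2.05 for PSMD12, -1.88 for PSMC4, -1.34 for PSMC1, -1.28 for PSMD2, -1.24 for PSMC5 and -0.88 for PSME4. It was -0.74 for PSMA7, -0.59 for PSMA4, -0.57 for PSMD1, -0.45 for PSMD5, -0.43 for PSMB4, -0.31 for PSMB5 and -0.22 for PSMB2. PSME2 (0.77) and PSMD13 (0.66) had the opposite sign. Most of these genes were named for a large WT change, which is a part of this term, so a high count was built in. Over all genes tested, the effect was smaller in Y36C cells for 61.2% and larger for 13.4%. The introns and junctions listed next were also named for changes that are part of the term.

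At the 3′ boundary of single introns, the difference was -4.09, -3.04, -3.48, -3.38, -3.44 and -2.73 for ADRM1 introns 2, 4, 5, 6, 7 and 9. For PSMD7 introns 5 and 6 the difference was -3.95 and -2.81. For PSMC5 intron 5 it was -0.48 (limma, adjusted p = 0.0418), and at the 5′ boundary of that intron it missed the threshold (-0.09, adjusted p = 0.71). At the 3′ boundary the difference was 1.72 for PSMD3 intron 9, 1.69 for PSME2 intron 5, 0.80 for PSMD13 intron 3 and 0.33 for PSMD11 intron 13.

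For exon skipping at the 3′ splice site, the difference was 0.61 for ADRM1 exon 9, 1.92 for PSMG1 exon 4, 1.88 for PSMA4 exon 3, 1.64 for PSMD5 exon 4, 1.60 for PSMD14 exon 3 and 1.43 for PSMC5 exon 5. It was -2.13 for PSMC2 exons 2 to 4, -1.99 for PSMC2 exons 8 and 9, -1.84 for PSMC6 exons 9 to 12 and -1.35 for PSMC5 exon 7.

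In 7 of 196 sets of 6 samples, 1 sample lay far from the other 5 by Dixon's test, which chance does in about 1 in 20 groups. The mean boundary PSI of PSMD7 was 4.11% in replicate 2 of E7107-treated Y36C cells, that of PSMD13 was 2.43% in replicate 2 of E7107-treated WT cells, and that of PSMD5 was 1.45% in replicate 5 of DMSO-treated Y36C cells. For single introns, 1 sample had 8.57% at ADRM1 intron 4 and 1 had 15.0% at PSMD11 intron 13 in DMSO-treated Y36C cells. In E7107-treated cells 1 sample had 3.85% at PSMD7 intron 5 (Y36C) and 1 had 9.37% at PSMD13 intron 3 (WT).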

How the results depend on the processing

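Of 119 recomputed counts and means that answer a comparison, 82 were within the limits set (1.5 times the count, or 1 SD of the mean). A filter at a mean PSI of 5% tested fewer values and gave lower counts: 282 boundaries raised and 7 lowered in WT cells, 56 and 0 in Y36C cells, 244 with a smaller and 24 with a larger effect in Y36C cells, 0 higher under DMSO, and, for exon skipping, 16 raised in WT, 30 raised in Y36C, 29 larger and 14 smaller. The 3 boundaries lowered in Y36C cells became 1 with an offset of 0.1 points, 0 with PSI as the response, 1 with no filter and 5 over all boundaries within the gene spans. The 1 boundary higher under DMSO was lost with an offset of 0.1 points, with no filter and with the replicate block (0 in each). With PSI as the response, 52 exon-skipping values rose in WT cells and 1 was lower in Y36C cells under DMSO. Mean retention (WT DMSO, WT E7107, Y36C DMSO, Y36C E7107) was 3.76%, 10.02%, 3.67% and 4.51% over all boundaries within the spans, 0.617%, 3.09%, 0.547% and 0.909% as a median, 1.89%, 14.1%, 1.90% and 3.25% with the 5% filter, and 1.15%, 5.04%, 1.11% and 1.83% without ADRM1 and PSMD7, an alternative chosen after seeing the data, as were those for the differences in exon skipping between genotypes. Among named genes, introns and junctions, 1045 of 1079 recomputed effects kept their side of the threshold, 30 lost it, 4 gained it and 0 reversed. PSMB2 lost its WT call with PSI as the response and over all boundaries within its span. Without read counts, the precision of a single PSI value is unknown.

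Replicate numbers are shared between groups, but same-numbered samples did not deviate together: the correlations of their deviations from the group means ranged from -0.0066 to 0.0092 over 191173 boundaries, and 2, 1 and 1 of 6 samples (E7107 against DMSO in WT, the same in Y36C, and the DMSO groups) correlated best with their own number. With the replicate block, 458 boundaries rose in WT cells and 126 in Y36C cells, and the exon-skipping values higher in Y36C cells under DMSO went from 3 to 0.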

Other observations

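Some genes that act on the proteasome from outside it had larger retention changes in WT cells than all its own subunits but ADRM1 and PSMD7. DDI2, the protease that activates the proteasome transcription factor NFE2L1, had a mean boundary PSI of 1.72% in DMSO-treated and 48.9% in E7107-treated WT cells (limma, adjusted p = 3.71e-12), against 1.36% and 1.93% in Y36C cells. NFE2L1 itself had 1.36% and 16.2% in WT cells (adjusted p = 2.2e-10) and 1.72% and 2.23% in Y36C cells. AKIRIN2, which brings proteasomes into the nucleus, had 2.83% and 38.2% over its 4 boundaries in WT cells (adjusted p = 2.24e-09). PSMG3, an assembly factor of the alpha ring with 1 intron, had 1.18% and 46.2% in WT cells (adjusted p = 1.4e-11) and 1.51% after E7107 in Y36C cells. These genes were named after their values were seen, from the list of 27.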
